A study of Mus musculus with 10 samples.

Results

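The genes described here encode the nuclear subunits of the mitochondrial oxidative phosphorylation system, together with the complex I assembly factors that share their gene prefix. They were chosen by symbol alone: rows of the array table that name 1 gene whose symbol begins with Nduf, Uqcr or Atp5, is Sdha, Sdhb, Sdhc or Sdhd, or begins with Cox4, Cox5, Cox6, Cox7 or Cox8, without pseudogenes. This gave 96 probe sets for 87 genes, of the 22180 genes that the platform names on a probe set of their own. The brightest probe set stood for each gene. Of the 87 genes, 32 encode complex I subunits, 8 are the complex I assembly factors Ndufaf1 to Ndufaf8, 4 belong to complex II, 7 to complex III, 19 to complex IV and 17 to complex V, the ATP synthase. A further 10 probe sets name a gene of this kind together with another gene and were left out, and 8 genes lie on such probe sets alone.

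Oxidative phosphorylation couples the oxidation of NADH and succinate to ATP synthesis in the inner mitochondrial membrane. Complexes I and II pass electrons to ubiquinone, complex III passes them on to cytochrome c, and complex IV hands them to oxygen. Complexes I, III and IV pump protons, and complex V uses the gradient to make ATP. Most subunits are encoded in the nucleus and a few core ones in mitochondrial DNA, and dedicated assembly factors build the complexes but are absent from the finished enzymes. In the fasted liver these complexes carry the electrons released by fatty acid oxidation.

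The arrays, Affymetrix Mouse Gene 2.1 ST, measured liver RNA of 3-month-old female BALB/cByJ mice in 4 groups: Pml wild type and Pml knockout mice with free access to food (2 arrays each), and both genotypes after 6 h without food (3 arrays each). Pml encodes the organizer of PML nuclear bodies. The sources used here do not give the knockout allele, and the feeding state was taken from the sample titles because the food-removal note of the submitters stands with every sample. The labels do not say that the arrays of a group came from separate animals, so the spread between them may be partly technical. Values are log2 of the deposited intensity, differences are in log2 units, and the number of arrays limits the precision.

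Pml itself lay between 7.50 and 8.37 on the 5 wild type arrays and between 6.05 and 6.91 on the 5 knockout arrays, which did not overlap. The difference was -1.61, leaving 32.7% of the wild type signal (exact permutation test, two-sided p = 0.00794). The hepatocyte markers Alb, Apoa1, Apob, Ttr, Cps1, Tat and Fgb were bright on all arrays, and 0 of the 7 were called by limma in any of the 5 comparisons. Fasted knockout arrays 1 and 2 stood apart from array 3 in clock genes. Arntl, a core activator of the circadian clock, read 4.60 and 4.53 on these arrays, 8.87 on array 3 and 9.04 to 9.29 on the fasted wild type arrays. Its target Dbp ran the other way, at 10.05 and 9.80 on arrays 1 and 2 and 6.00 on array 3. On the fed knockout arrays Dbp read 9.88 and 10.02, so arrays 1 and 2 lay near the fed level. Calls, counts and medians on fasted knockout mice are therefore also given without arrays 1 and 2, which leaves 1 array in that group. For the 79 genes tested below, this moved a difference that involves the fasted knockout by a median of 0.04. The largest move was 0.28, in Ndufa9, from -0.13 to 0.15 in knockout fasting. Clock genes also differed between fed and fasted wild type mice. Arntl read 7.50 and 7.10 on the fed wild type arrays and 5.72 and 6.02 on the fed knockout arrays. In wild type mice Dbp read 9.50 and 9.58 fed and 6.07, 6.58 and 6.64 fasted. Of 12 tested clock genes 4 were called in wild type fasting (33.3%, compared with 21.4% of all genes). The fit uses 1 variance per gene for all groups, so the spread among the fasted knockout arrays enters this test. For Arntl the SD was 2.49 in that group and 0.13 in fasted wild type mice. The 2 feeding groups of wild type mice were fully separated in 10 of the 12 clock genes (83.3%, all genes 52.7%). Their differences ran from -3.12 to 3.70. The part of time of day in the fasting differences was not tested. Whether feeding or time of collection set fasted knockout arrays 1 and 2 apart was not tested either.

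Transcripts for the subunits of the 5 complexes were nearly level across feeding state and genotype, and 3 of the 5 genes that changed with fasting in wild type mice were assembly factors. Of these 5 genes only Ndufaf7 kept its change under all 20 alternative settings of the fit. Of the 87 genes, 79 had a probe set above the array median on at least 2 arrays and were tested among 13942 genes with limma, and a gene was called at a Benjamini-Hochberg adjusted p under 0.05. In wild type mice, fasting raised 3 of the 79 and lowered 2, while 21.4% of all tested genes were called (8.23% higher and 13.2% lower). In knockout mice it raised 1 and lowered 1, against 1.68% of all genes (0.811% higher and 0.868% lower). Knockout and wild type mice differed in 0 of the 79 genes in the fed state, with 2 at an unadjusted p under 0.05 and 0.0861% of all genes called (0.0574% higher and 0.0287% lower). In the fasted state 1 gene was higher and 1 lower in the knockout, against 11.1% of all genes (6.68% higher and 4.43% lower). With each array centred on its median the lower call was gone and the split was 1 to 0. The interaction, which asks whether fasting acted differently in the 2 genotypes, was called for 1 gene, which was higher, against 2.11% of all genes (1.32% higher and 0.789% lower). The counts were 0 of 79 in knockout fasting, between fasted genotypes and in the interaction without fasted knockout arrays 1 and 2 (limma), with 3, 2 and 4 at an unadjusted p under 0.05 and 1.18%, 0.0430% and 0% of all genes called.

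The intervals, each for a single gene and not adjusted for the number of genes, bounded how far these genes could have moved. In wild type fasting the 95% interval of the difference lay wholly inside 2-fold in 78 of the 79 genes (98.7%), compared with 83.4% of all genes tested. In the other 3 pairwise comparisons all 79 intervals did so, compared with 90.9%, 92.2% and 91.2% of all genes. For the interaction 74 of the 79 intervals (93.7%) did so, compared with 73.8% of all genes. When fasted knockout arrays 1 and 2 were left out, the counts were 77 in knockout fasting, 78 between fasted genotypes and 75 in the interaction, compared with 80.2%, 84.8% and 65.4% of all genes. Fewer intervals of the fit to all 10 arrays lay inside a narrower bound of 0.5 log2 units either way. In wild type fasting 58 of the 79 did so (73.4%, all genes 35.8%), and in the interaction 42 (53.2%, all genes 16.4%). In the other 3 comparisons the shares were 79.7%, 82.3% and 87.3%, compared with 45.7%, 46.9% and 48.6% of all genes. The median difference of the 79 genes was 0.00 for wild type fasting and 0.04 for knockout fasting. It was -0.01 for the knockout in the fed state and 0.01 in the fasted state, and the medians over all genes were -0.02, 0.01, -0.02 and 0.01 in the same order. The medians of the 79 were 0.06 for knockout fasting and 0.03 for the knockout in the fasted state without fasted knockout arrays 1 and 2. Over the 10 arrays the median range was 0.34 for the 79 genes and 0.68 for all genes. Of the 79, 68 had a range below 0.68. The 79 genes were also brighter, with a median level of 9.78 on the log2 scale compared with 7.24 for all genes. The part of brightness in the narrower ranges and intervals was not tested.

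**Figure D1:**
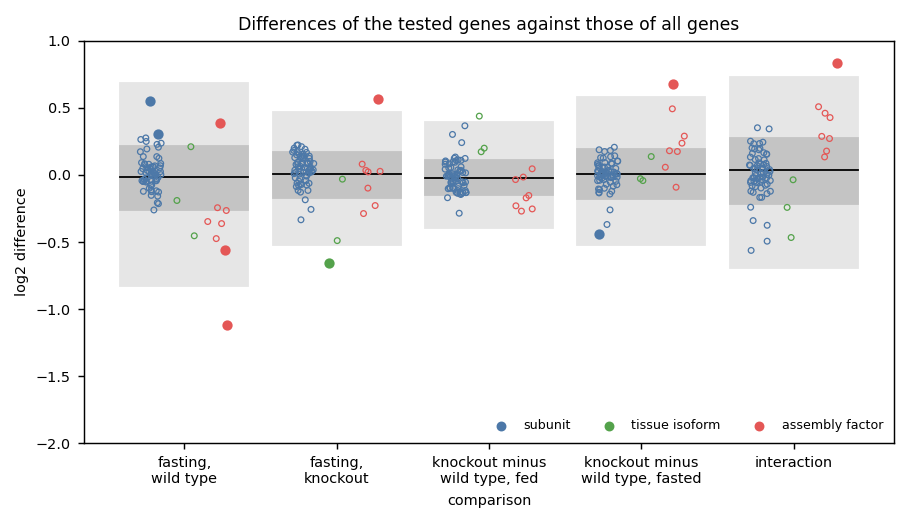
Log2 differences (vertical axis) of the 79 tested genes in the 5 comparisons (horizontal axis), as points coloured by class, with filled points for genes called at an adjusted p under 0.05. Grey bands hold the middle 50% (dark) and 90% (light) of all 13942 genes and the black line is their median; the subunits gather near 0, while Ndufaf7 lies lowest in wild type fasting at -1.12 and highest in the interaction at 0.83.

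Fed and fasted arrays, or arrays of the 2 genotypes, overlapped in most of these genes. Groups did not overlap in 33 of the 79 genes (41.8%) in wild type fasting, where 52.7% of all genes did not overlap. The counts were 26 (32.9%, all genes 36.8%) in knockout fasting and 37 (46.8%, all genes 39.9%) between genotypes in the fed state. Between genotypes in the fasted state the count was 15 (19.0%, all genes 33.0%). With array 3 as the only fasted knockout array, 60 of the 79 (75.9%, all genes 79.3%) lay apart from the fed knockout arrays and 42 (53.2%, all genes 66.1%) from the fasted wild type arrays. Many of these genes also differed in 1 direction between arrays of a single group. Fasted knockout array 1 was above array 2 in 57 of the 79 genes, while it was the higher of the pair in 47.7% of all genes. Fasted wild type array 3 was below array 1 in 59 and below array 2 in 62 of the 79, while array 1 was above it in 46.7% and array 2 in 44.5% of all genes. The mean log2 level of the 79 genes ran from 9.39 on fasted wild type array 3 to 9.54 on fasted knockout array 1.

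**Figure D2:**
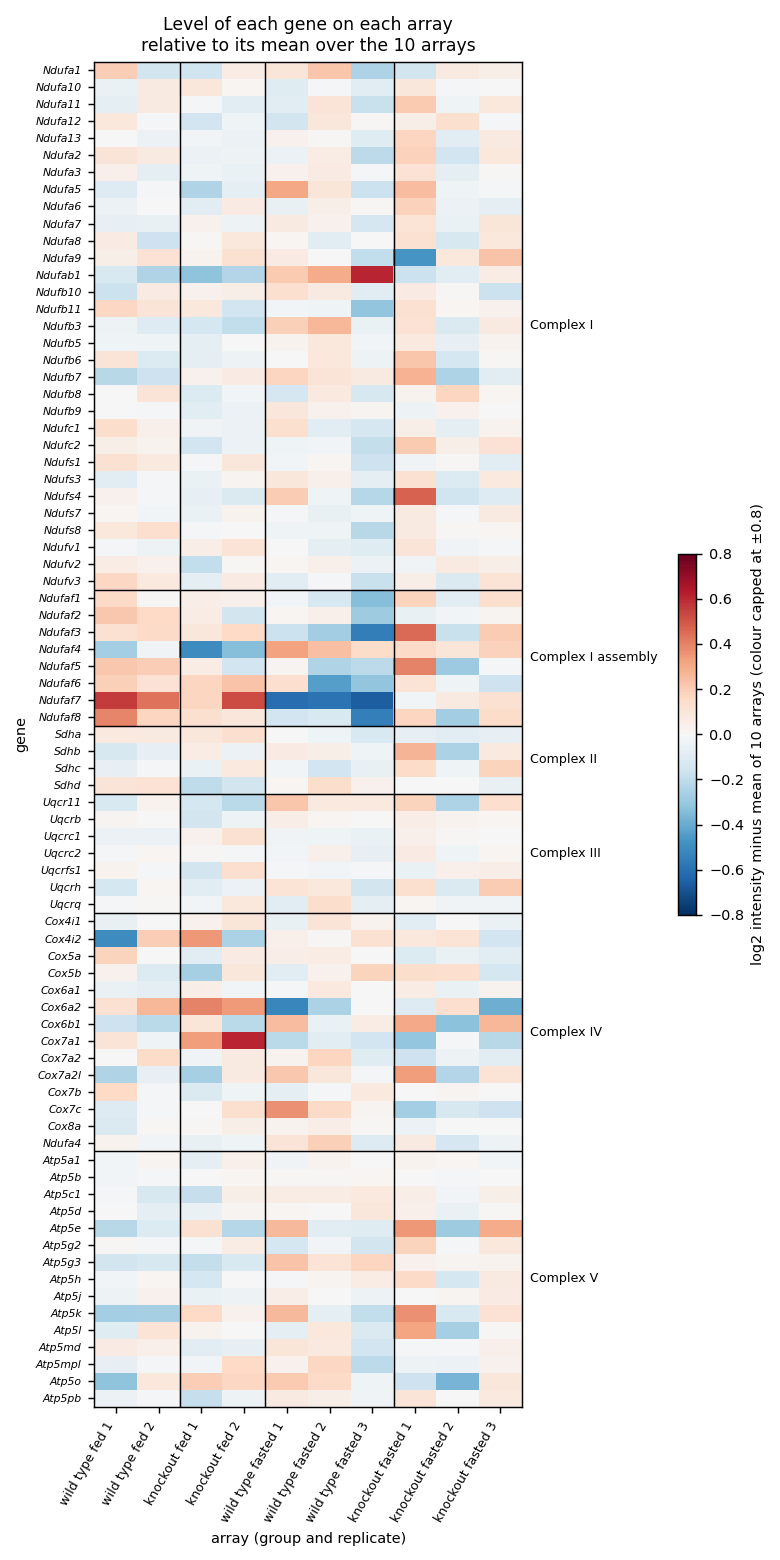
Each row is 1 of the 79 tested genes, grouped by complex, and each column 1 of the 10 arrays; colour is the log2 intensity minus that gene's mean over the 10 arrays, capped at ±0.8. Most rows are pale, the assembly factors Ndufaf7, Ndufaf8 and Ndufaf3 are blue on the fasted wild type arrays, and Ndufab1 and Ndufaf4 are red there.

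Complex I, the NADH dehydrogenase, had 31 tested subunits, of which 1, Ndufab1, was called. Ndufv1, which binds NADH and FMN, differed by -0.03 (95% interval -0.25 to 0.18) on fasting in wild type mice and by -0.06 (-0.28 to 0.15) in knockout mice. Ndufs1, the largest iron-sulphur subunit, differed by -0.16 (-0.38 to 0.07) and -0.08 (-0.30 to 0.15). Across the 31 subunits the differences ran from -0.26 to 0.55 in wild type fasting and from -0.13 to 0.22 in knockout fasting (-0.21 to 0.34 without arrays 1 and 2). The highest of the latter were the accessory subunits Ndufc2 and Ndufa5, each at 0.22 and neither called (0.21 and 0.14 without arrays 1 and 2). Ndufc2 also had an interaction of 0.34 that did not pass the test (adjusted p = 0.23; 0.33 without arrays 1 and 2, adjusted p = 0.35). Ndufs4 showed how far 1 array could depart: it read 10.86 on fasted knockout array 1 and 10.23 and 10.29 on arrays 2 and 3.

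Complexes II and III had 0 of 4 and 0 of 7 subunits called by limma in each of the 5 comparisons. The only unadjusted p under 0.05 among them was that of Sdhd in the fed state. Sdha, the flavoprotein that oxidizes succinate, read 10.95 and 10.94 fed and 10.87, 10.83 and 10.75 fasted in wild type mice, and 10.96 and 11.00 fed and 10.80, 10.79 and 10.80 fasted in knockout mice. Its fasted arrays lay below its fed arrays in both genotypes, but the differences of -0.13 (95% interval -0.33 to 0.08) and -0.18 (-0.39 to 0.02) did not pass the test. Sdhb, the iron-sulphur subunit, differed by 0.12 and 0.03. Sdhd, a membrane anchor, read 10.07 and 10.08 on the fed arrays of wild type mice and 9.76 and 9.82 on those of knockout mice. That difference of -0.28 did not pass the test (adjusted p = 0.44), and in the fasted state it was -0.08. In complex III, Uqcrc1, a core subunit, stayed between 10.38 and 10.55 on the 10 arrays, and Uqcrfs1, the Rieske iron-sulphur protein, differed by -0.02 and 0.02 on fasting in wild type and knockout mice.

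Among the liver-expressed subunits of complex IV, cytochrome c oxidase, 0 of 11 tested were called by limma, and Cox7c alone had an unadjusted p under 0.05. Cox4i1 differed by 0.05 (95% interval -0.16 to 0.27) on fasting in wild type mice and by -0.12 (-0.33 to 0.10) in knockout mice, and Cox5a by -0.05 and -0.07. Cox7c, a small membrane subunit, came nearest to a call, at levels not far above the array medians of 5.44 to 5.57. It read 6.47, 6.25 and 6.12 on the fasted wild type arrays and 5.83, 5.97 and 5.93 on the fasted knockout arrays. These groups did not overlap, and the difference of -0.37 missed the threshold (adjusted p = 0.058). It was -0.35 (adjusted p = 0.31) without fasted knockout arrays 1 and 2.

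Complex V had 1 call, Atp5g3, among 15 tested genes. Atp5b, the catalytic beta subunit, had the smallest range of all 79 genes: it read 12.22 and 12.24 fed and 12.26, 12.25 and 12.26 fasted in wild type mice, and 12.24 and 12.26 fed and 12.24, 12.23 and 12.25 fasted in knockout mice. Its fasting difference was 0.03 (95% interval -0.17 to 0.22) in wild type mice, where the fed arrays lay just below the fasted ones, and -0.01 (-0.21 to 0.19) in knockout mice, where they overlapped. Atp5a1, the alpha subunit, differed by 0.00 (-0.20 to 0.21) and 0.02 (-0.18 to 0.23). The highest log2 value on the 10 arrays was 13.73, so Atp5b lay near the top of the scale. Atp5o, the stalk subunit known as OSCP, was dim, at 5.42 to 6.00 beside array medians of 5.44 to 5.57. It had the most negative interaction of the 79 genes, -0.56, which did not pass the test (adjusted p = 0.218). It was -0.32 (adjusted p = 0.514) without fasted knockout arrays 1 and 2, and Cox7a1 then had the most negative value, -0.51.

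**Figure D3:**
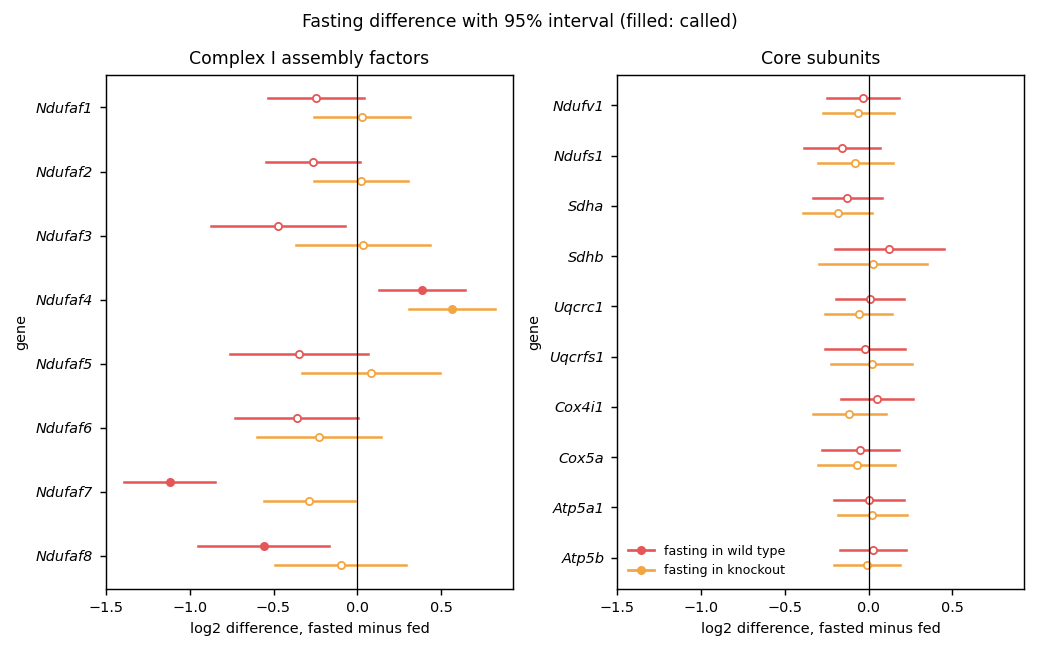
Fasting differences (log2, fasted minus fed; horizontal axis) with 95% intervals in wild type (red) and knockout (orange) mice for the 8 complex I assembly factors (left) and 10 core subunits of the 5 complexes (right), with filled points for called genes. All 10 core subunits lie between -0.18 and 0.12, while 7 of the 8 assembly factors lie below 0 in wild type mice.

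Fasting in wild type mice changed 3 of the 8 complex I assembly factors (37.5%, compared with 21.4% of all genes). Ndufaf7 and Ndufaf8 fell, Ndufaf4 rose and the other 5 did not pass the test. Of the 8 differences 7 were negative in sign, with a median of -0.35, where the median over all genes was -0.02 and 52.2% of all genes had a negative difference. Leaving out each array in turn gave medians between -0.48 and -0.31. In knockout mice the median was 0.03, 3 of the 8 differences were negative and 1 gene, Ndufaf4, was called. That median was 0.05, 2 were negative and 0 were called by limma (1 at an unadjusted p under 0.05) without fasted knockout arrays 1 and 2.

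Ndufaf7, a mitochondrial methyltransferase needed for complex I assembly, changed most. It read 6.89 and 6.77 on the fed wild type arrays, 5.72, 5.74 and 5.67 on the fasted wild type arrays, 6.50 and 6.85 on the fed knockout arrays, and 6.31, 6.40 and 6.45 on the fasted knockout arrays. The fasted wild type arrays lay together below the other 7, and no group overlapped with them. The medians of these 3 arrays were 5.49, 5.54 and 5.57, so Ndufaf7 lay only just above the filter there. Fasting lowered Ndufaf7 by 2.17-fold in wild type mice (log2 difference -1.12, SE 0.12, adjusted p = 0.000607). In knockout mice the difference was -0.29 (95% interval -0.56 to -0.01), which did not pass the test (adjusted p = 0.238; -0.22 without arrays 1 and 2, adjusted p = 0.52). The wild type call held under all 20 alternative settings, with adjusted p between 0.000295 and 0.00786.

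Ndufaf8, a partner of Ndufaf5 in complex I assembly, read 8.09 and 7.87 on the fed and 7.54, 7.57 and 7.15 on the fasted arrays of wild type mice. The groups did not overlap, and array 3 was lowest. The fall was 0.56 on the log2 scale (SE 0.17, adjusted p = 0.0478). This call was lost under 14 of 20 alternatives, including 9 of the 10 omissions of a single array (all but fasted knockout array 2), with adjusted p up to 0.254 and differences between -0.67 and -0.42. Ndufaf4, which acts with Ndufaf3 at an early stage of assembly, was the one factor of the 8 with a positive difference in wild type fasting. Wild type mice read 8.53 and 8.78 fed and 9.13, 9.05 and 8.95 fasted, and knockout mice 8.31 and 8.47 fed and 8.96, 8.91 and 8.99 fasted. All 6 fasted arrays lay above all 4 fed arrays.

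Ndufaf4 rose by 0.39 (SE 0.11, adjusted p = 0.0378) in wild type and by 0.565 (SE 0.11, adjusted p = 0.048) in knockout mice. The first call was lost under 9 of 20 alternatives, among them the omission of fed wild type array 1 or of any fasted wild type array. The second was lost under 13 of 20, including each omission of a single knockout or fasted wild type array. Without fasted knockout arrays 1 and 2 the knockout difference was 0.60 (adjusted p = 0.104). In wild type mice Ndufaf3 read 8.90 and 8.93 fed and 8.61, 8.50 and 8.23 fasted, groups that did not overlap. Its difference of -0.47 did not pass the test (adjusted p = 0.0891), though it did (adjusted p = 0.0393) in the fit without the 2 knockout arrays that stood apart. For Ndufaf1, Ndufaf2, Ndufaf5 and Ndufaf6 the wild type differences were -0.24, -0.26, -0.35 and -0.36, and the knockout ones 0.03, 0.02, 0.08 and -0.23, none of them called. The latter were 0.08, 0.07, 0.04 and -0.36 without fasted knockout arrays 1 and 2. Ndufaf5 was dim and lay above the array median on 6 arrays. On fasted wild type arrays 2 and 3 it read 5.35 and 5.38, below their medians of 5.54 and 5.57, so its differences are near the floor.

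**Figure D4:**
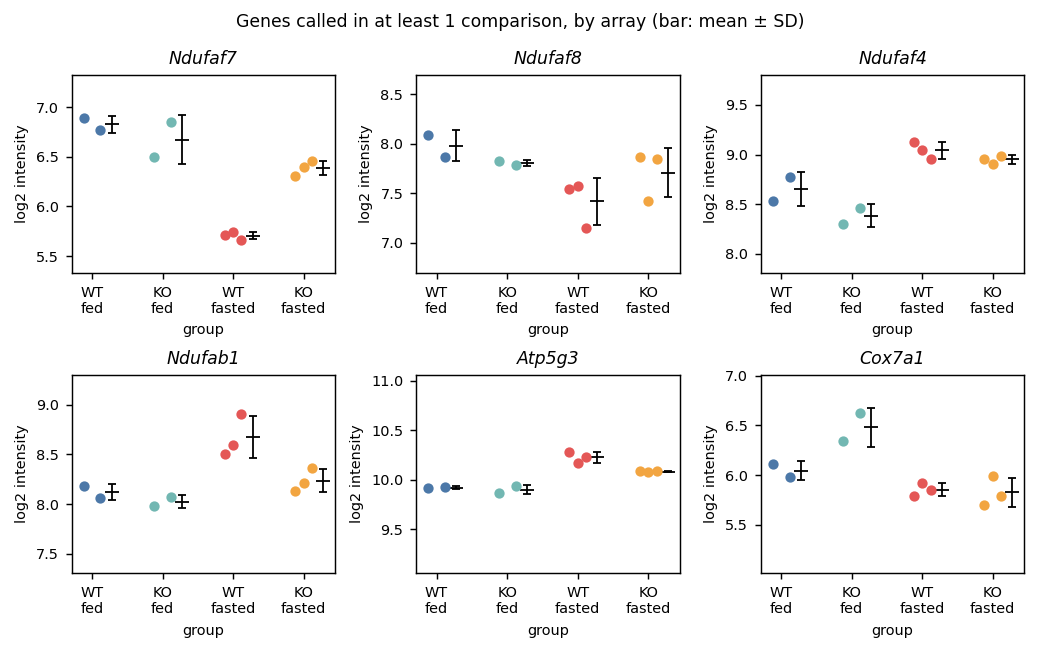
Log2 intensity (vertical axis) of the 6 genes called in at least 1 comparison, by group (horizontal axis; WT wild type, KO knockout), with 1 point per array and the mean ± SD beside them; every panel spans 2 log2 units. The fasted wild type arrays of Ndufaf7 lie between 5.67 and 5.74, and all other arrays lie at 6.31 or above.

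Among finished subunits, 2 rose with fasting in wild type mice. Ndufab1 encodes the mitochondrial acyl carrier protein, which is a complex I subunit and also serves mitochondrial fatty acid and lipoate synthesis. In wild type mice it read 8.18 and 8.06 fed and 8.51, 8.60 and 8.91 fasted, without overlap and with array 3 highest. It rose by 0.55 (1.46-fold, SE 0.14, adjusted p = 0.0189). Of 20 alternatives only the omission of fed wild type array 1 or of array 2 lost the call, with adjusted p up to 0.102. In knockout mice Ndufab1 read 7.98 and 8.07 fed and 8.13, 8.21 and 8.36 fasted.

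Atp5g3 is 1 of 3 genes for the same mature subunit c, the ring that turns in the membrane part of ATP synthase. Wild type mice read 9.91 and 9.93 fed and 10.28, 10.17 and 10.23 fasted, and knockout mice 9.87 and 9.93 fed and 10.09, 10.08 and 10.08 fasted. The 6 fasted arrays lay above the 4 fed ones. The rise in wild type mice was 0.30 (1.23-fold, SE 0.09, adjusted p = 0.0425). It was lost under 14 of 20 alternatives, including 9 of the 10 omissions of a single array (all but fasted knockout array 1), with adjusted p up to 0.174. Its paralogue Atp5g2 differed by -0.10 (95% interval -0.33 to 0.13) in the same comparison, and Atp5g1 was too dim to be tested. Probe positions were not checked, so whether the probe sets of the 3 genes share signal was not tested.

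Tissue isoforms of complex IV replace the liver forms in muscle, lung or testis, and 8 of them were on the array. Cox4i2, Cox6a2 and Cox7a1 were bright enough to be tested and the other 5 were not. Cox7a1, the heart and skeletal muscle form of subunit VIIa, read 6.34 and 6.62 on the fed and 5.70, 5.99 and 5.79 on the fasted arrays of knockout mice, and 6.11 and 5.98 on the fed and 5.79, 5.92 and 5.85 on the fasted arrays of wild type mice. The fed and fasted knockout arrays did not overlap. It fell by 0.66 on the log2 scale (SE 0.13, adjusted p = 0.044), and in wild type mice the difference was -0.19 (95% interval -0.48 to 0.10). The knockout call was lost in each of the 10 omissions of a single array and under 15 of 19 alternatives, with adjusted p up to 0.282. Without fasted knockout arrays 1 and 2 the difference was -0.70 (adjusted p = 0.0775).

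Cox7a1 was also the gene with the most positive genotype difference in the fed state, 0.44, which did not pass the test (adjusted p = 0.375). It rests on the same 2 fed knockout arrays. Of a list of 10 muscle genes 2 were bright enough to be tested and 0 were called, and the summed intensity of the list was 264 to 331 on the fed and 281 to 363 on the fasted arrays. The part of muscle RNA in the Cox7a1 difference was not tested. Cox6a2, another muscle form, was above the array median on 5 arrays, namely all fed arrays and fasted knockout array 2. It thus passed the filter mainly through the fed groups, where it was high, so its fall is given as values only. On fasting it differed by -0.45 (95% interval -0.86 to -0.05, adjusted p = 0.105) in wild type mice. In knockout mice it differed by -0.49 (-0.89 to -0.08, adjusted p = 0.187). The latter was -0.76 (adjusted p = 0.109) without fasted knockout arrays 1 and 2. Its partner in liver, Cox6a1, differed by 0.08 and 0.00. Cox7a2, the liver form of subunit VIIa, differed by -0.04 and -0.12.

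The remaining isoform partners moved little. Cox6b1 differed by 0.28 and 0.14 on fasting in wild type and knockout mice, Cox7a2l by 0.25 and 0.17, Cox8a by 0.09 and -0.04, and Ndufa4, now counted with complex IV, by 0.06 and 0.01. None of these was called. The knockout difference of Cox6b1 was 0.32 without fasted knockout arrays 1 and 2. The 8 genes that were not tested were Cox6b2, Cox7b2, Cox8b, Cox8c, Ndufa4l2, Atp5g1, Atp5j2 and Ndufs5. The first 5 are tissue or condition-specific forms. Ndufs5 and Atp5j2 encode subunits of every complex I and complex V, so a dim probe set does not show that their transcripts were scarce in liver. Their log2 values lay between 3.53 and 4.17 and between 3.71 and 4.99.

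Between genotypes the subunits again differed little, and the fed state gave no call. The most positive fed differences were those of Cox7a1 (0.44), Atp5k (0.37) and Atp5o (0.30), and the most negative those of Sdhd (-0.28), Ndufaf4 (-0.27) and Ndufaf5 (-0.25), none of which passed the test. With 2 arrays on each side, the 95% intervals of these 6 genes still lay inside 2-fold. In the fasted state Ndufaf7 was higher in the knockout by 0.68 (1.60-fold, SE 0.11, adjusted p = 0.00877). The 3 knockout arrays, at 6.31 to 6.45, all lay above the 3 wild type arrays, at 5.67 to 5.74. Without fasted knockout arrays 1 and 2 the difference was 0.75 (adjusted p = 0.0917), and under the other 19 alternatives the call held.

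Ndufab1 was lower in the fasted knockout by 0.44 (SE 0.12, adjusted p = 0.0484), with 8.13, 8.21 and 8.36 on the knockout arrays and 8.51, 8.60 and 8.91 on the wild type arrays. The groups did not overlap. The call was lost under 13 of 20 alternatives, including 9 of the 10 omissions of a single array (all but fasted knockout array 3), and without arrays 1 and 2 the difference was -0.31 (adjusted p = 0.397). Ndufaf3 was 0.49 higher in the fasted knockout without passing the test (adjusted p = 0.0759). Its knockout arrays spread from 8.60 to 9.23, and without arrays 1 and 2 the difference was 0.54 (adjusted p = 0.161). Ndufaf8 differed by 0.29 and Atp5o by -0.26, neither of them called. Without arrays 1 and 2 Ndufaf8 differed by 0.42 and Atp5o by -0.02.

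Markers of Kupffer cells and other macrophages moved in this comparison too. Of 9 such genes 4 were called between fasted knockout and fasted wild type mice, where 11.1% of all genes were called. The summed intensity of the list was 4618 to 5274 on the fasted knockout and 3875 to 4069 on the fasted wild type arrays. No gene of the list was at 0. In the fit without fasted knockout arrays 1 and 2, limma called 0 of the 9, with 4 at an unadjusted p under 0.05. In wild type fasting, where 21.4% of all genes were called, 2 of the 9 were called, with 4070 to 5028 on the fed arrays. Of the 7 tested stellate cell genes 2 were called there too. The part of other cell types in the results above was not tested. In whole liver, fewer cells of a type and less RNA per cell cannot be told apart. The summed intensity of the hepatocyte list was 42848 to 43591 on the fasted wild type arrays and 40062 to 44200 on the fasted knockout arrays.

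The interaction was called for Ndufaf7 alone of the 79 genes. The fasting difference was 0.83 more positive in knockout than in wild type mice (SE 0.17, 95% interval 0.45 to 1.22, adjusted p = 0.044), that is, a fall of 1.12 against one of 0.29 that did not pass the test. It was lost in each of the 10 omissions of a single array and under 14 of 19 alternatives, with adjusted p up to 0.136 and differences between 0.66 and 1.01. Without fasted knockout arrays 1 and 2 it was 0.90 (adjusted p = 0.11). All 8 assembly factors had a positive interaction, from 0.13 to 0.83 with a median of 0.36, where 54.3% of all genes were positive with a median of 0.04. When fasted knockout arrays 1 and 2 were left out, 7 of the 8 were positive, Ndufaf6 was at -0.0018 and the median was 0.36. Of 69 tested mitochondrial ribosomal proteins 63 also had a positive interaction, with a median of 0.23 and 0 called by limma, 9 of them at an unadjusted p under 0.05. The 68 tested subunits without the tissue isoforms had a median of 0.02, and 0 of them were called, with 3 at an unadjusted p under 0.05. The interaction and the fasting comparisons share the same arrays, so these counts are a restatement of the values above and no separate support.

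The 5 genes called in wild type fasting differ in the factor motifs at their starts, and their promoters are shown for that comparison. Nuclear respiratory factor 1 (NRF1), GABP (also called NRF-2) and YY1 are known activators of many oxidative phosphorylation genes. The sequences are RefSeq's for GRCm38.p6, 250 bases before to 50 after the annotated start, written 5′ to 3′ on the strand of the gene, with matches to GCGCA, any base, then GCGC (NRF1), CCGGAAG (GABP) and AAGATGGC (YY1) on either strand in capitals.
Ndufaf7 chr17:78936885-78937184 (+): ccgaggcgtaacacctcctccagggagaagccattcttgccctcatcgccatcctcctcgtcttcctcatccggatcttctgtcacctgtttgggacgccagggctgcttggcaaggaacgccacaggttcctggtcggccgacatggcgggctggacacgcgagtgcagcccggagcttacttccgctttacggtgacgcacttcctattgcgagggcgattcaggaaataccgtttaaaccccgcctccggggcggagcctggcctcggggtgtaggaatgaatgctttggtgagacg
Ndufaf8 chr11:120098684-120098983 (+): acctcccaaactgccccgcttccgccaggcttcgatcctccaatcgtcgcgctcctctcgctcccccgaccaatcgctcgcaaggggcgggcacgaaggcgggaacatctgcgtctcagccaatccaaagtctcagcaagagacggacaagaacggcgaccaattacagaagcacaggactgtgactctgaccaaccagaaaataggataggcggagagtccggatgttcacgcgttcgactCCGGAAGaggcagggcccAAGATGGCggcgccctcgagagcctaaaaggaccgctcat
Ndufaf4 chr4:24897833-24898132 (+): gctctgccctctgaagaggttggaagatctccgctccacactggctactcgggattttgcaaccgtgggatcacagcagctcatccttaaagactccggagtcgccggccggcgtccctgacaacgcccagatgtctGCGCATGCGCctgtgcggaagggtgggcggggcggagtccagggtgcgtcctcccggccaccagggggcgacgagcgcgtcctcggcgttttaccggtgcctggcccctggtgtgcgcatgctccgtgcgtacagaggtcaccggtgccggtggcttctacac
Ndufab1 chr7:122101799-122102098 (-): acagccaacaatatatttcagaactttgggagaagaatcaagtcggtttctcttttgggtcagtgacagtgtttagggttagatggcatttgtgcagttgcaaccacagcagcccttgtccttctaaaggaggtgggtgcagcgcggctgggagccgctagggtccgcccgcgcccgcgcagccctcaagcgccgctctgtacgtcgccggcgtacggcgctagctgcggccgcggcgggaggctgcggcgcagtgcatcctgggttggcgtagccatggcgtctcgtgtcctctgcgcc
Atp5g3 chr2:73911277-73911576 (-): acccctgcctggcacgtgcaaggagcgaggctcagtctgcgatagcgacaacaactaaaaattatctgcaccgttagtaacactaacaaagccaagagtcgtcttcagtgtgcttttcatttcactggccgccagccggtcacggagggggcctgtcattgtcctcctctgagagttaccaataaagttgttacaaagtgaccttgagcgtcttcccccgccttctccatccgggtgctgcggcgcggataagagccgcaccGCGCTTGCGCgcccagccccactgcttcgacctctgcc
The window of Ndufaf8 holds a GABP match and, after it, a YY1 match. Those of Ndufaf4 and Atp5g3, which rose, each hold an NRF1 match, the latter on the opposite strand as GCGCTTGCGC. Those of Ndufaf7 and Ndufab1, the genes that moved most in either direction, hold none of the 3, which says only that these letters are not in the windows. RefSeq places another transcript, Gm46848, over part of Ndufaf4, and 0 annotated genes over Ndufaf7, Ndufaf8, Ndufab1 and Atp5g3.

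Of the 87 genes 72 matched a promoter in the RefSeq table. The NRF1 motif was in 17 of them (23.6%), compared with 9.89% of 10936 tested genes with a promoter and 5.19% of all 27025. The GABP motif was in 19 (26.4%, compared with 17.2% and 9.93%), and the YY1 motif in 10 (13.9%, compared with 4.73% and 3.19%). AAGGTCA, bound by oestrogen-related receptors, was in 6 (8.33%, compared with 4.53% and 5.38%), and the E-box CACGTG, bound by clock proteins among others, was also in 6 (8.33%, compared with 11.0% and 8.09%). TATAAA was in 8 (11.1%, compared with 10.9% and 15.7%). Promoters that hold an NRF1 match include those of Sdha, Sdhd, Uqcrc1 and Atp5o, whose levels did not pass the test in any comparison. A match is a description of the sequence and shows no binding.

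Several regulators of mitochondrial biogenesis changed with fasting in wild type mice. Of 20 tested biogenesis regulators, 6 rose and 1 fell with fasting in wild type mice (35.0% called, compared with 21.4% of all genes). Nrf1 itself rose by 0.64 (adjusted p = 0.0199), Yy1 by 0.46 (0.0309), Tfb2m, a mitochondrial transcription factor, by 0.56 (0.0104), and Ppara, the fatty acid receptor, by 0.63 (0.0226). Pprc1, a PGC-1 family coactivator, rose by 0.86 (0.004) and Nrip1, a corepressor, by 0.92 (0.00586), and Tfb1m, which methylates mitochondrial ribosomal RNA, fell by 0.59 on the log2 scale (0.00327). The count of rising regulators was 3 without fed wild type array 2 or fasted wild type array 3, and 4 or more without any other array. In knockout mice Pprc1 rose by 0.87 (adjusted p = 0.0323) and no other regulator was called. In the fit without fasted knockout arrays 1 and 2 the difference of Pprc1 was 0.84 (adjusted p = 0.0832), and Ppargc1b alone was called, at -1.02 (adjusted p = 0.0426).

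In fasted mice the knockout was lower than wild type in Nrip1 (-0.82), Pprc1 (-0.64) and Ppargc1b (-0.60) and higher in Tfb1m (0.57), while 11.1% of all genes were called. None of the 20 regulators was called without fasted knockout arrays 1 and 2. Tfb1m read 8.85, 8.85 and 8.87 on the fasted arrays of wild type mice and 9.38, 9.43 and 9.47 on those of knockout mice, without overlap. In the interaction Tfb1m (0.72, adjusted p = 0.0391) and Ppargc1b (-1.17, adjusted p = 0.0426) were called. The Tfb1m call was lost in 9 of the 10 omissions of a single array (all but fasted knockout array 3). That of Ppargc1b was lost in 8 (all but fasted knockout array 2 and array 3). Both were lost without fasted knockout arrays 1 and 2, at 0.76 (adjusted p = 0.0944) and -1.41 (adjusted p = 0.065).

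Assembly factors for all 5 complexes that do not carry the Nduf prefix were taken from a separate list. Of 41 tested, 7 fell and 1 rose with fasting in wild type mice, and the median of the 41 was -0.22. The share called, 19.5%, was near the 21.4% of all genes, whose median was -0.02. Acad9, an acyl-CoA dehydrogenase relative that builds complex I, read 8.94 and 8.86 fed and 8.22, 7.97 and 7.80 fasted in wild type mice. The groups did not overlap, and it fell by 0.91 on the log2 scale (SE 0.14, adjusted p = 0.00225). Lyrm7 and Bcs1l, which insert the Rieske protein into complex III, fell by 0.80 (adjusted p = 0.00511) and 0.62 (0.00568). The other factors that fell were Nubpl (-0.51) for complex I, Sco1 (-0.49) and Cox15 (-0.41) for complex IV, and Atpaf1 (-0.42) for complex V, and Cox19, a copper-handling factor of complex IV, rose by 0.54 (0.00725). Of the 41, 3 fell without fed wild type array 1, 4 without fed wild type array 2 or fasted wild type array 1, and 5 to 8 without any other array.

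In knockout fasting 0 of these 41 factors were called by limma, with 3 at an unadjusted p under 0.05 and a median of 0.03, which it also was without fasted knockout arrays 1 and 2. Atpaf1 (0.49) and Bcs1l (0.48) were higher and Cox19 (-0.40) was lower in fasted knockout than in fasted wild type mice. Leaving out each array in turn gave 0 to 2 higher and 0 to 1 lower. The median of the 41 was 0.17, and 0.20 without fasted knockout arrays 1 and 2. The 3 calls between fasted genotypes were 7.32% of the 41, compared with 11.1% of all genes. Each array centred on its median left the 2 higher calls and removed the lower one. In the interaction 0 were called, with 9 at an unadjusted p under 0.05 and a median of 0.25 (0.26 without those arrays).

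The subunits encoded in mitochondrial DNA gave no call. Of 10 on the array, 0 were called by limma in any of the 5 comparisons, with 1 at an unadjusted p under 0.05, ND6 in the fed state. All but ND6 lay between 12.38 and 13.13 on all arrays, near the top of the scale. ND6, which is transcribed from the other mitochondrial strand, ranged from 7.78 to 8.83. Its fed knockout arrays, 8.83 and 8.63, lay above its fed wild type arrays, 8.11 and 7.99, and the difference of 0.68 did not pass the test (adjusted p = 0.493). Of 69 tested mitochondrial ribosomal proteins, which translate these transcripts, 4 fell and 1 rose in wild type fasting, with a median of -0.14. The share called, 7.25%, was below the 21.4% of all genes. Mrps27 fell by 0.95 on the log2 scale (adjusted p = 0.001). The count that fell was 1 without fed wild type array 2 or fasted wild type array 3, and 2 without fed wild type array 1 or fasted wild type array 1.

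Enzymes that feed electrons into the chain moved in both directions. Of 20 tested electron carriers and entry points 6 were called in wild type fasting (30.0%, compared with 21.4% of all genes). Gpd2, the mitochondrial glycerol phosphate dehydrogenase, rose by 0.56 and Etfdh, which passes electrons from fatty acid oxidation to ubiquinone, by 0.41 (adjusted p = 0.0189 and 0.0364). Sqor, which oxidizes sulphide, fell by 0.69 on the log2 scale. So did 3 genes of ubiquinone synthesis, Coq8b (-0.63), Coq7 (-0.55) and Pdss2 (-0.49). Without fed wild type array 1, 0 of the 20 rose and 1 fell, and without fasted wild type array 3, 0 rose and 3 fell. In fasted mice Coq8b (0.62), Coq4 (0.49) and Coq10a (0.49) were higher and Gpd2 (-0.48) lower in the knockout, and none of the 20 was called without fasted knockout arrays 1 and 2.

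Of 14 tested genes of the citric acid cycle and its refilling, citrate synthase (Cs) rose by 0.49 and pyruvate carboxylase (Pcx) by 0.33 in wild type fasting, with adjusted p of 0.0133 and 0.0463, a share of 14.3% compared with 21.4% of all genes. Neither call was made without fed wild type array 1 or array 2. Cs read 9.76 and 9.79 fed and 10.23, 10.22 and 10.32 fasted in wild type mice. Between fasted genotypes 3 of the 14 were called (21.4%, compared with 11.1% of all genes). In fasted mice Cs (-0.42), Ogdh (-0.45) and Pcx (-0.37) were lower in the knockout. Leaving out each array in turn gave 0 higher and 0 to 3 lower. The median of the 14 was -0.04 with and without fasted knockout arrays 1 and 2. Of 4 tested genes of ATP synthase regulation and coupling, Slc25a4, an ADP/ATP carrier, was 0.55 higher in fasted knockout mice (adjusted p = 0.0472). It was the only call in that comparison, where 11.1% of all genes were called, and no other comparison gave a call. The difference was 0.49 (adjusted p = 0.295) without fasted knockout arrays 1 and 2.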

How the data were processed

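Mouse liver RNA from 10 samples was hybridised to Affymetrix Mouse Gene 2.1 ST arrays. The intensity values were summarised with RMA in Affymetrix Expression Console by the authors, per the submitters' processing notes, and deposited on a linear scale for 41345 probe sets. Array medians ran from 43.5 to 47.5. They were converted to log2 with no pseudocount. RMA had already removed background and aligned the arrays, so shifts common to all genes cannot be seen.

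Probe sets were named through the platform annotation (23521 with 1 symbol, 22180 genes), and the brightest probe set stood for a gene. Genes above the array median on at least 2 arrays were tested (13942). limma 3.58.1 in R 4.3.3 fitted 4 group means to all 10 arrays (6 residual degrees of freedom, lmFit and eBayes) for 5 comparisons, with Benjamini-Hochberg adjustment over all genes tested and 95% moderated intervals; the script was tested on simulated data. Replicate numbers did not pair the samples: deviations of same-numbered arrays correlated between -0.17 and 0.11 over 13 pairs, so no block was used.

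Members, lists and the rule for named genes were chosen with earlier results of these data known. The rule names called genes whose groups do not overlap (10 a direction at most), otherwise the 3 largest differences; core subunits; isoforms; untested genes; and up to 4 genes of a list with the smallest p. Other called list genes, Ndufs4, ND6 and Sdhd's fasted value were added after their values were seen. Alternatives changed centring, normalization, filter, probe set choice, variance model, array weights, block, samples and each array in turn; leaving out fasted knockout arrays 1 and 2, or the assembly factors, was chosen after seeing the data.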

Additional observations from a re-analysis of the deposited data

Results flagged for a closer look

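The difference between genotypes in their response to fasting was tested by the interaction term in limma, and 3 of the genes named above passed. For Ndufaf7 the fasting difference was 0.83 more positive in the knockout (adjusted p = 0.044). For Tfb1m it was 0.72 more positive (adjusted p = 0.0391), a fall of 0.59 on the log2 scale in wild type mice beside a value of 0.13 in knockout mice that did not pass the test. For Ppargc1b, a PGC-1 family coactivator, it was -1.17 (adjusted p = 0.0426), with 0.40 in wild type and -0.78 in knockout mice, neither called. Ndufaf7 lost its call in each of the 10 omissions of a single array, Tfb1m in 9 and Ppargc1b in 8. Without fasted knockout arrays 1 and 2, whose clock genes stood apart, 0 of 13942 genes had a called interaction.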

How the results depend on the processing

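Leaving out each array in turn gave medians of the 79 genes from -0.01 to 0.02 in wild type fasting and 0.01 to 0.08 in knockout fasting. They ran from -0.05 to 0.0017 between fed genotypes, -0.01 to 0.03 between fasted genotypes and -0.0032 to 0.07 in the interaction. The sign of the median thus held in knockout fasting alone. With arrays centred the median was -0.04 in wild type fasting and 0.08 in the interaction. The Pml difference ran from -1.75 to -1.52, and no call of a tested member changed sign. Of 198 repeats of the 10 calls, 103 kept and 95 lost the call, and 5 of 3039 repeats of values that were not called gained one (Ndufaf3 in 4, Cox6a2 in 1). Counts of calls are small, so 1 gene moves them. In wild type fasting (3 higher, 2 lower) they were 1 and 1 with arrays centred, with no filter, with the replicate block and with the groups of the comparison alone. There 1 rose without fasted knockout arrays 1 and 2, and 0 fell without the assembly factors. In knockout fasting (1 and 1) they were 0 and 0 under those 4 settings and without arrays 1 and 2; 0 fell with the stricter filter and 0 rose without the assembly factors. In fasted knockout against fasted wild type mice (1 and 1), 0 were lower with arrays centred, with no filter and with the groups alone, 2 were higher with a trended robust variance, 0 were higher or lower without arrays 1 and 2, and 0 were higher without the assembly factors. The interaction (1 higher) gave 0 with arrays centred, with no filter, with the replicate block, without arrays 1 and 2 and without the assembly factors. Leaving out each array in turn gave 0 to 3 higher and 1 to 3 lower in wild type fasting, 0 to 1 higher and 0 lower in knockout fasting, 1 to 2 higher and 0 to 1 lower between fasted genotypes, and 0 in the interaction. Without a filter, 22180 genes shared the adjustment. The other causes were not tested. Over all genes the replicate block took the counts to 825 higher and 1415 lower in wild type fasting (1147 and 1843 without it). They became 0 and 0 in knockout fasting (113 and 121), and 83 and 54 in the interaction (184 and 110). Whether replicate numbers pair the samples was not settled. Without a filter 10 genes were called in knockout fasting, 4 in the interaction, 654 between fasted genotypes and 4 between fed genotypes, and without arrays 1 and 2 these were 165, 0, 6 and 2 (234, 294, 1549 and 12 in the fit reported). With a stricter filter they were 452, 501, 1931 and 12, and with a trended robust variance 504, 520, 1968 and 24. With 2 or 3 arrays a group, differences under about the interval widths given are not resolved.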

Other observations

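Of the 87 genes, 9 had a second probe set that names them alone, and 7 of these second probe sets passed the filter. That of Cox7b, a small subunit of complex IV, differed by -0.45 in wild type fasting, where the brightest probe set of the gene differed by -0.08; in knockout fasting they differed by 0.01 and 0.08. For Atp5e, a small subunit of the ATP synthase, the second probe set differed by -0.09 and the brightest by 0.19 in wild type fasting.

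Pml lies on chromosome 9 with 6 of the 87 genes, which in order of distance are Cox5a, Sdhd, Atp5l, Cox7a2, Ndufaf3 and Uqcrc1. None of the 6 was called between genotypes in the fed or the fasted state. Sdhd differed by -0.28 and -0.08, Ndufaf3 by -0.02 and 0.49, and Cox5a, the nearest, by -0.10 and -0.12. Without fasted knockout arrays 1 and 2 the fasted differences were -0.12, 0.54 and -0.13.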
